A study of Mus musculus with 721 samples.

Results

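Genes of regulated exocytosis and of synaptic vesicles were followed through early endocrine differentiation in the embryonic mouse pancreas. The group held 36 genes, listed by symbol, out of 32806 genes in the deposited table, and all 36 had an entry. It covered the SNAREs and the proteins that recycle them, the synaptotagmins and synaptotagmin-like proteins, the Rab3 and Rab27 GTPases and their effectors, priming factors, complexins, and membrane proteins of synaptic vesicles and dense-core granules.

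Regulated exocytosis is the release of stored vesicles on a calcium signal. A SNARE on the vesicle (a VAMP) zips up with SNAREs of the plasma membrane (a syntaxin and a SNAP protein), synaptotagmins sense calcium, complexins clamp the assembled bundle, and Rab3 and Rab27 with their effectors bring vesicles to the membrane. Endocrine cells of the islet release insulin and glucagon with much of the machinery that neurons use, and endocrine progenitors arise from pancreatic epithelium that switches on the transcription factor Neurog3, with Fev following in many of its descendants.

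The study sequenced 721 single cells from the pancreata of Neurogenin 3-eGFP embryos, a reporter line in which green fluorescence follows the Neurog3 promoter. Embryos were taken at embryonic days E11.5, E12.5, E13.5, E14.5 and E15.5, the labels name no treatment, and cells positive for the reporter were sorted into plates and amplified by SMART-seq. Every group therefore carried the reporter. The labels name no strain, sex, embryo or litter, so the cells of a day and sequencing run were taken as 1 cell set: 8 sets in all, with E11.5 and E12.5 in run 1 only and the later days in both runs.

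Levels were the authors' FPKM values (sequenced fragments corrected for transcript length and for the cell's mapped total). Of the 721 cells, 658 had at least 100000 fragments and 1500 genes at 1 FPKM, with a median of 587177 fragments. A cell at 100 FPKM of Ins1 or Ins2 with Gcg below 100 was called an insulin cell (57 cells), and a cell at 100 FPKM of Gcg without insulin a glucagon cell (51). Cells without hormone were Neurog3-only (163), Neurog3+Fev (79) or Fev-only (60) by a level of 10 FPKM of each factor. Those with neither factor but with Epcam, an epithelial adhesion protein, at 10 FPKM and with Ptprc, Pecam1 and Cdh5 below it formed a marker-negative epithelial state (82). Cells with both hormones (17), with another hormone (57) or with none of these markers (92) entered no comparison of states. No member entered these definitions. These genes did not define the other 5 states, where 49.4% to 74.5% of cells had Epcam at 10 FPKM. There 0% to 3.07% had the leukocyte gene Ptprc and 0% to 3.33% the endothelial gene Pecam1. The endothelial gene Cdh5 stayed below 10 FPKM in each of the 492 cells of the 6 states, which the definition fixed for the epithelial cells. These values do not check the epithelial label. In the Neurog3-only cells of E11.5, 9 leukocyte markers summed to 3410 FPKM. Median fragments in these states lay between 524062 and 658061.

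Comparisons used the mean FPKM of each state in each set that held at least 5 cells of it. These means were tested on the scale log2(FPKM + 1), which understates changes of low genes, in a single limma fit with the set as a factor. All states and sets entered that fit, so a fitted difference also drew on sets that did not hold both of its states. It can therefore lie outside the differences seen within sets. The number of sets named with a comparison counts those that held both states. The p-values were adjusted by Benjamini-Hochberg over all genes with a mean of at least 1 FPKM, 15803 in the comparison of states, and called at 0.05. That filter kept 30 members and left out Syt1, Syt4, Sytl2, Rab27b, Cplx1 and Syn1. In a set mean, fewer cells with a transcript and less transcript per cell cannot be told apart, so the share of cells at 10 FPKM is given beside the levels. Unless a set is named, these shares are pooled over days, which the states hold in unlike proportions.

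**Figure D1:**
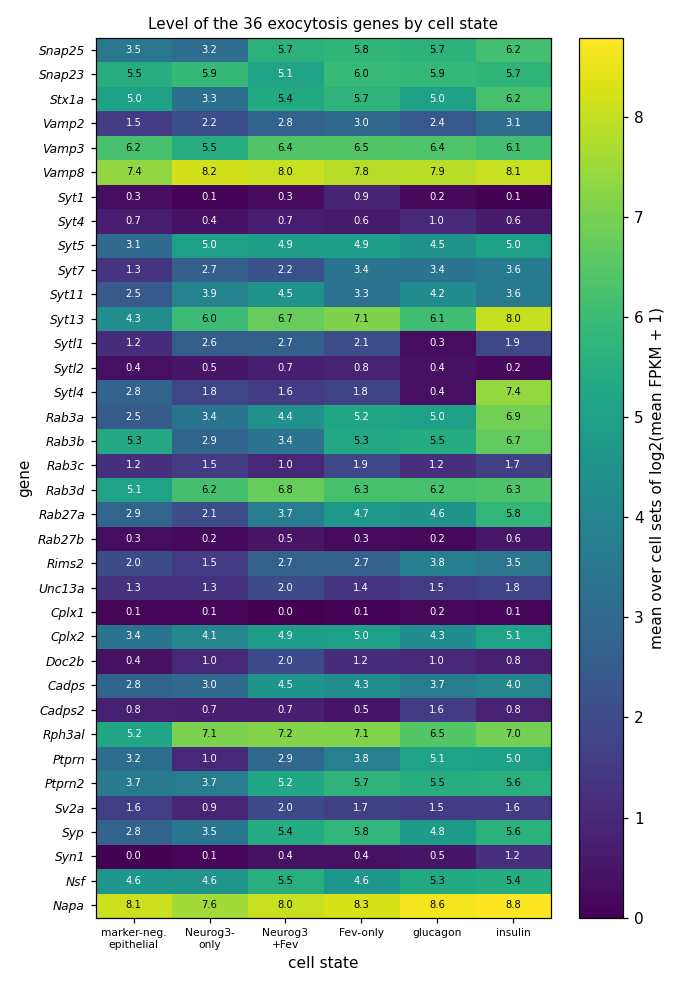
Level of each of the 36 members (lines) in 6 states (columns), as the mean over cell sets of log2(mean FPKM + 1), by color. Brighter colors are higher levels. Snap25, Stx1a, Rab27a, Ptprn2 and Ptprn are brighter in the Fev and hormone states than in Neurog3-only cells. Sytl4 is bright in insulin cells (178 FPKM on average over 3 sets), and Rph3al, Syt13, Vamp8 and Napa are bright in Neurog3-only cells. Vamp8 and Napa are also bright in marker-negative epithelial cells.

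Of the 5 comparisons of states, the step to Fev held the most called members. Between Fev-only and Neurog3-only cells, over 6 sets, 3 of 30 tested members rose, the plasma-membrane SNARE Stx1a, the granule GTPase Rab27a and the granule membrane protein Ptprn2, where 1.89% of all tested genes rose. None fell by limma's test, where 2.6% of all tested genes fell, and 10 members had an unadjusted p under 0.05, all of them higher in Fev-only cells. The median difference was 0.39 log2 over the members and -0.09 over all genes. In all 6 sets 8 members were higher (Snap25, Stx1a, Vamp3, Rab3b, Rab27a, Ptprn, Ptprn2 and Napa), against 5.4% of all genes, and 2 were lower (Vamp8 and Rph3al), against 7.44%.

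Stx1a (chr5:135023482-135051100, mm10) encodes syntaxin 1A, the syntaxin of fast neuronal and insulin granule release. Its level in Neurog3-only cells ran from 0.0628 over a median of 10.8 to 26.3 FPKM across 8 sets. In Fev-only cells it ran from 18.8 over 54.3 to 126 FPKM across 6 sets. The lowest Fev-only set, E15.5 run 2, lay within the Neurog3-only range, and the other 5 lay above it. The fitted difference was 2.33 log2 (SE 0.54, 95% interval 1.23 to 3.44, limma adjusted p = 0.0117), with a higher value in 6 of 6 sets. In Neurog3+Fev cells Stx1a stood at 13.1, 45.2 and 78.9 FPKM (lowest, median and highest of 6 sets), and the share of cells at 10 FPKM was 16.6% in Neurog3-only, 55.7% in Neurog3+Fev and 50% in Fev-only cells. The call was lost with a Neurog3 and Fev level of 30 FPKM (adjusted p = 0.113) and within either run alone, at 0.412 in run 1 and 0.117 in run 2.

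Rab27a (chr9:73044854-73097629), a GTPase that docks granules at the membrane, had 0.271, 2.74 and 14.1 FPKM as its lowest, median and highest Neurog3-only set. Its Fev-only sets had 17.7 FPKM at E13.5 run 1, 21.3 at E13.5 run 2, 30.9 at E14.5 run 1, 12.6 at E14.5 run 2, 55.6 at E15.5 run 1 and 29.7 at E15.5 run 2. The ranges overlapped at the E14.5 run 2 value alone. The difference was 2.19 log2 (SE 0.51, interval 1.13 to 3.24, limma adjusted p = 0.0131), and the share of cells at 10 FPKM was 10.4% against 61.7%. Neurog3+Fev cells lay between, with a median of 16.3 FPKM and a share of 36.7%. Without E13.5 run 2, E15.5 run 1 or E15.5 run 2 the adjusted p was 0.072, 0.0657 and 0.0706, at a level of 30 FPKM it was 0.0575, and neither run alone gave a call.

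Ptprn2 (chr12:116485720-117278167) encodes phogrin, a phosphatase-like protein of the dense-core granule membrane. It was the most even of the 3 across sets. Neurog3-only sets had 6.16, 13.6 and 19.7 FPKM (lowest, median and highest), 12.9 ± 4.8 (SD, n = 8 sets), and Fev-only sets had 41.8, 53.8 and 58.3, 52.4 ± 5.7 (SD, n = 6 sets). Neurog3+Fev sets had 23.9, 41.5 and 47 FPKM. Neurog3-only sets did not overlap the sets of either Fev state. Fev-only cells were higher by 1.72 log2 (SE 0.45, interval 0.8 to 2.63, limma adjusted p = 0.0252), and the share of cells at 10 FPKM was 31.9% in Neurog3-only, 69.6% in Neurog3+Fev and 86.7% in Fev-only cells. The call did not hold with a pseudocount of 0.1 (adjusted p = 0.154), at a level of 30 FPKM (0.0512), in run 1 alone (0.566), or without any 1 of E13.5 run 2, E14.5 run 1, E14.5 run 2, E15.5 run 1 and E15.5 run 2 (0.0686 to 0.124).

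Promoters of the 3 genes called at the Fev step, from 250 bases before to 50 bases after the RefSeq start on GRCm38.p6, are shown to let their sequence be read beside these levels. That of Ptprn2 is chr12:116485470-116485769 on the plus strand, that of Stx1a chr5:135023232-135023531 on the plus strand, and the first listed of Rab27a chr9:73044560-73044859 on the plus strand. Capitals mark motif matches.
Ptprn2: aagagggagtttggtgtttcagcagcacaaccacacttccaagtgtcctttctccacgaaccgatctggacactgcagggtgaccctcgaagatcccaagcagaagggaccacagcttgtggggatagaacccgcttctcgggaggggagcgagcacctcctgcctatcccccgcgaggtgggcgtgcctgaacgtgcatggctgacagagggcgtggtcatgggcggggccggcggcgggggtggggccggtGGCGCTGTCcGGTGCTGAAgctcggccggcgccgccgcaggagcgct
Stx1a: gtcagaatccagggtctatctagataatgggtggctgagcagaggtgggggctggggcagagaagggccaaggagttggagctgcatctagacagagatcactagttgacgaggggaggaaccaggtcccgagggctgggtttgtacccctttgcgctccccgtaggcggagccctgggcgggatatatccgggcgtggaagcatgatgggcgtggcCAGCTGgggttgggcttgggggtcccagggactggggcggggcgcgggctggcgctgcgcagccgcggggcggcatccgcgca
Rab27a: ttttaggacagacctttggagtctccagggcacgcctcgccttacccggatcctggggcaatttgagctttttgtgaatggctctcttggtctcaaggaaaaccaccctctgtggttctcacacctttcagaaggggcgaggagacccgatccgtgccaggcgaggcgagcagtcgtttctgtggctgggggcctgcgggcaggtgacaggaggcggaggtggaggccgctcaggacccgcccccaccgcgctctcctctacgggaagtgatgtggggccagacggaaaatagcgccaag
In Ptprn2 the capitals are the left and right parts of RE1, the element bound by the neuronal gene repressor REST, searched as TTCAGCACC and GACAGCGCC on both strands. Both matched the minus strand, the right part from base 4 and the left part from base 14, counting the start base as 1, with 1 base between them. The parts were searched separately, and their spacing was not compared with that of a whole RE1. The left part was in 0.371% and the right part in 0.326% of the 32851 RefSeq promoters of that length. Of the 25 members with a promoter in that table (29 promoters), Ptprn2 and Unc13a held both parts and Syn1 the left part. The capitals in Stx1a are an E-box, CAGCTG, 33 bases before the start. That E-box was in 16.3% of all promoters and in promoters of 10 members, the form CAGATG was in 17.2% of all and in 1 member, Cadps, and the cyclic AMP element TGACGTCA was in 1.79% of all and in 2 members, Napa and Syn1. The Rab27a promoter shown held none of the 5 motifs, though another promoter of Rab27a held CAGCTG. A match describes letters, not a bound site.

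**Figure D2:**
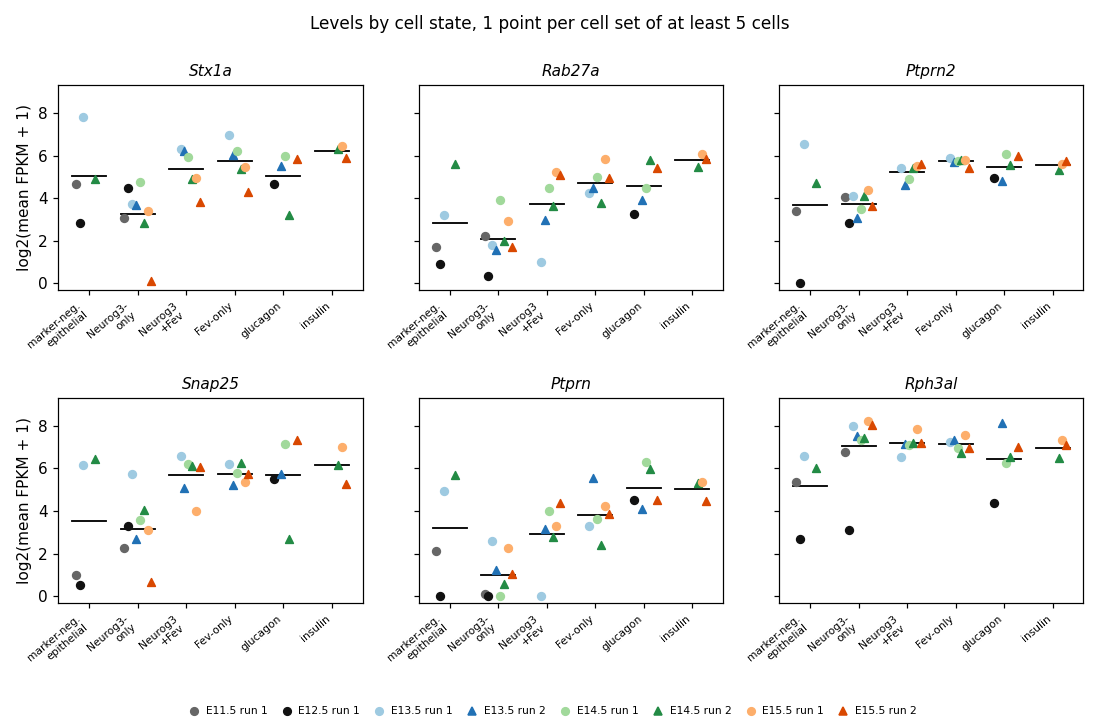
Mean FPKM + 1 per cell set (log2 scale) of Stx1a, Rab27a, Ptprn2, Snap25, Ptprn and Rph3al in 6 states. Circles are run 1, triangles run 2, and bars the mean over sets. Neurog3-only sets of Ptprn2 (6.16 to 19.7 FPKM) lie apart from Fev-only sets (41.8 to 58.3 FPKM), while Rph3al is at a median of 178 FPKM in Neurog3-only and 137 FPKM in Fev-only sets.

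Cells that held both factors stood between these states for Rab27a and Ptprn2 by their median sets. Against Neurog3-only cells, 0 of 30 members were called by limma in either direction, where 0.316% of all genes rose and 0.202% fell, while 8 members had an unadjusted p under 0.05, 7 of them higher. Higher in all 6 sets were 7 members (Snap25, Stx1a, Syt11, Rims2, Cadps, Ptprn2 and Nsf), against 3.64% of all genes, and 2 were lower in all 6 (Syt7 and Rph3al), against 4.26%. The median member differed by 0.42 log2 and the median gene by -0.04. Stx1a was 1.96 log2 higher (SE 0.54, adjusted p = 0.111) and Ptprn2 1.22 log2 higher (SE 0.45, adjusted p = 0.305). Without E12.5 run 1, which holds no Neurog3+Fev cell, Stx1a was called, in a fit that called 77 genes up and 46 down. With sets of at least 10 cells, 6 members were called, Ptprn, Ptprn2, Rab27a, Snap25, Stx1a and Syt5, in a fit that called 126 genes up and 75 down against 50 and 32 here.

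Among the plasma-membrane SNAREs, Snap25 (chr2:136713453-136782428), the SNAP protein of neurons and endocrine cells, had 0.579, 8.24 and 51.9 FPKM in its lowest, median and highest Neurog3-only set. It had 15, 66.5 and 94.5 in Neurog3+Fev sets and 36.3, 53.3 and 74.5 in Fev-only sets. The ranges overlapped, although Fev-only cells were the higher in 6 of 6 sets. The difference was 2.11 log2 with a wide error (SE 0.76, interval 0.55 to 3.67, limma adjusted p = 0.128). Snap25 was called in 4 of 19 alternatives, among them with units weighted by cell number, and its limma adjusted p reached 0.558 in another. The share of cells at 10 FPKM was 14.1% (95% exact interval 9.16 to 20.4) in Neurog3-only cells and 57% (45.3 to 68.1) in Neurog3+Fev cells. Its widely expressed relative Snap23 stayed within 28.4 to 111 FPKM in Neurog3-only and 36.4 to 93.6 in Fev-only sets (difference 0.09 log2, SE 0.36, adjusted p = 0.954). Of the summed FPKM of the pair, Snap25 held 15.2% in Neurog3-only, 57.6% in Neurog3+Fev and 46.4% in Fev-only cells, as means over sets.

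Snap25 is made in 2 forms that differ in a pair of alternative exons, printed here because the deposited transcripts keep them apart. Capitals mark the bases that differ, and both are on the plus strand of mm10, the upstream exon at chr2:136769743-136769860 and the downstream exon at chr2:136770057-136770174.
Snap25 upstream exon: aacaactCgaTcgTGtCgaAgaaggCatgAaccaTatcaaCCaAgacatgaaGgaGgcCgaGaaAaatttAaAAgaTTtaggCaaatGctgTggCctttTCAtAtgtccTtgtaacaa
Snap25 downstream exon: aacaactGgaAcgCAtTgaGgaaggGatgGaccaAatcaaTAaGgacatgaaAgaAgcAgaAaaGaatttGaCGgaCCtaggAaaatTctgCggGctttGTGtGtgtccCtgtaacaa
Each exon has 118 bases, of which 31 differ (73.7% identical). The transcript with the upstream exon held 36.7% of Snap25 FPKM pooled over Neurog3-only cells, 30.1% over Neurog3+Fev, 38% over Fev-only, 39.1% over glucagon and 40.8% over insulin cells. By set it ran from 9.49e-05% to 49.4% in Neurog3-only, 7.48% to 41.6% in Neurog3+Fev and 27.1% to 51.2% in Fev-only cells. In glucagon sets it ran from 12.6% to 40.2% and in insulin sets from 26.8% to 48%, so all these ranges overlapped. These shares come from the authors' assignment of reads to 2 transcripts whose ends differ by 1077 bases, and they were not tested.

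Of the vesicle SNAREs, Vamp8, which serves granule release in exocrine cells, held 84.6% of the summed Vamp2, Vamp3 and Vamp8 FPKM in Neurog3-only and 77% in insulin cells. Its sets ran from 221 over 261 to 638 FPKM in Neurog3-only cells and from 122 over 242 to 523 in Fev-only cells. Vamp2, the synaptic VAMP, was low throughout. It had 0.47, 4.94 and 7.56 FPKM in Neurog3-only sets, 0.172, 10 and 14 in Fev-only sets, and 1.46, 18.2 and 13.2 in the insulin sets of E14.5 run 2, E15.5 run 1 and E15.5 run 2. These groups overlapped, and 11.7% of Neurog3-only against 28.1% of insulin cells had it at 10 FPKM. Those shares also differ in day. Over all kept cells Vamp2 was at 10 FPKM in 35.2% and 40.2% of the E15.5 sets and 3.33% to 28.2% of the earlier sets. Vamp3, a VAMP of recycling endosomes, was 0.57 log2 higher in Fev-only cells (SE 0.28, adjusted p = 0.331), but its deposited locus spans a neighboring gene, so its level is uncertain.

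Cells with Snap25 and Stx1a together at 10 FPKM numbered 3 of 163 among Neurog3-only cells (1.84%, exact interval 0.381 to 5.28) and 30 of 79 among Neurog3+Fev cells (38%, 27.3 to 49.6). The share was 28.3% in Fev-only, 33.3% in glucagon and 28.1% in insulin cells. The median number of the 36 members at 10 FPKM per cell was 6 in marker-negative epithelial, 10 in Neurog3-only, 13 in Neurog3+Fev, 14 in Fev-only, 14 in glucagon and 16 in insulin cells. By set, these medians ran from 5 to 13 in epithelial and from 11 to 14 in Neurog3+Fev cells, and those of Neurog3-only cells overlapped the epithelial ones. Median genes detected per cell were 5327 in Neurog3-only, 5535 in Neurog3+Fev, 5225 in Fev-only, 6438 in glucagon and 5946 in insulin cells, and median fragments 595542, 524062, 583599, 658061 and 588408; their part in the member counts was not tested.

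**Figure D3:**
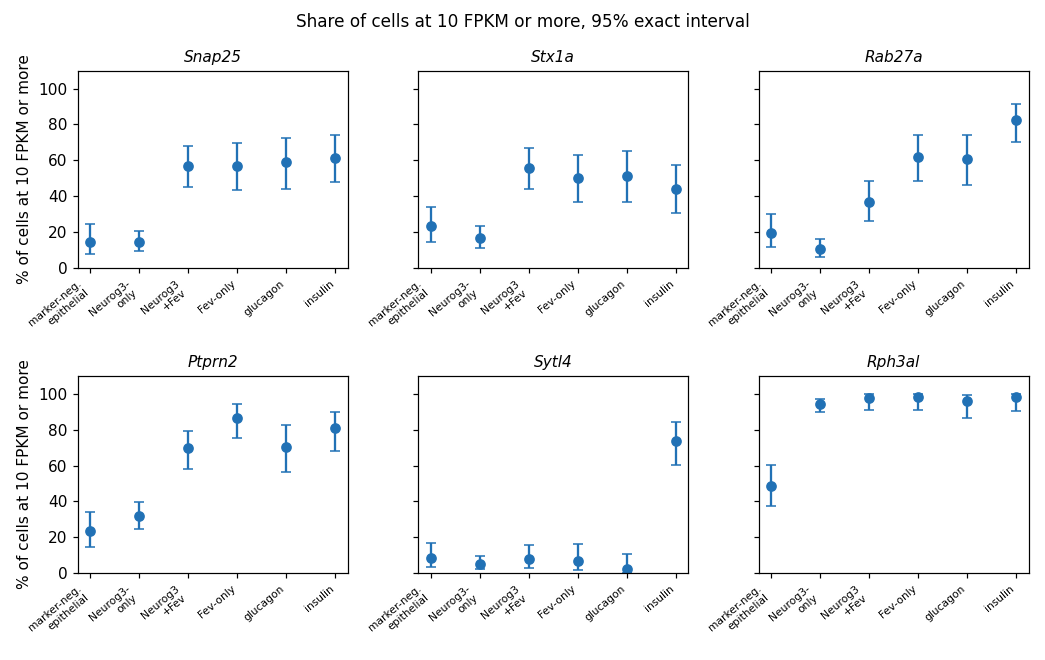
Percent of cells at 10 FPKM or more (y axis) in 6 states for Snap25, Stx1a, Rab27a, Ptprn2, Sytl4 and Rph3al, with 95% exact binomial intervals that cover counting error only. Snap25 goes from 14.1% to 57% between Neurog3-only and Neurog3+Fev cells, Sytl4 stays at 8.54% or less until the insulin cells (73.7%), and Rph3al is at 94.5% in Neurog3-only cells.

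Ptprn (chr1:75247041-75264208) encodes IA-2, the sister of phogrin in the granule membrane and a known autoantigen of type 1 diabetes. Its Neurog3-only sets had 0.0, 0.755 and 4.94 FPKM (lowest, median and highest) and its Fev-only sets 4.28, 12.4 and 45.1. The ranges met only between 4.28 and 4.94 FPKM. The difference of 2.34 log2 was as large as that of Stx1a with a larger error (SE 0.71, interval 0.89 to 3.79, limma adjusted p = 0.0577). It was called in 5 of 19 alternatives, among them without E13.5 run 1, and its limma adjusted p reached 0.585 in another. In E13.5 run 1 the 7 Neurog3+Fev cells had Ptprn, Rab3a and Rab3b listed at 0.0. As means over sets, Ptprn held 8.35% of the summed Ptprn and Ptprn2 FPKM in Neurog3-only, 22.2% in Fev-only, 43.3% in glucagon and 41.2% in insulin cells. Phogrin thus had the larger mean share in each of these states, though Ptprn reached 57% in its highest glucagon set and 49.4% in its highest insulin set.

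Among the synaptotagmins, Syt13, an atypical member of that family without the usual calcium-binding residues, was the most abundant as a mean over sets. It had 2.38, 102 and 221 FPKM in Neurog3-only sets, 77.2, 127 and 258 in Fev-only sets, and 267, 327 and 206 in the 3 insulin sets. All groups but the insulin sets reached below 100 FPKM. No step of Syt13 was called, and 80.4% of Neurog3-only cells had it at 10 FPKM against 98.2% of insulin cells. These shares come from unlike mixes of days. Syt7, a slow high-affinity calcium sensor of insulin granules, was lower in Neurog3+Fev than in Neurog3-only cells in 6 of 6 sets with a fitted difference of -0.99 log2 that did not pass (SE 0.39, limma adjusted p = 0.365). Its shares of cells at 10 FPKM were 36.2% in Neurog3-only, 11.4% (exact interval 5.34 to 20.5) in Neurog3+Fev and 41.7% in Fev-only cells. Its set levels of 0.0403, 5.09 and 22 FPKM in Neurog3-only, 2.19, 3.43 and 6.24 in Neurog3+Fev and 7.16, 8.84 and 12.1 in Fev-only cells put each Fev-only set above each Neurog3+Fev set. That order was seen in the values and was not a planned comparison. Syt5 and Syt11 stood at medians of 25.3 and 12.1 FPKM in Neurog3-only and 28.1 and 10.4 in Fev-only sets.

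The synaptic calcium sensor Syt1 and its relative Syt4 were near 0. Syt1 reached 10 FPKM in 0 of 163 Neurog3-only and 0 of 57 insulin cells, which allows up to 2.24% and 6.27% of cells by the exact interval. Syt4, a synaptotagmin tied to granule maturation in mouse beta cells, had 0.0, 0.315 and 0.996 FPKM in Neurog3-only sets and 0.604, 0.0882 and 1.19 in the insulin sets. Its highest unit was the glucagon cells of E12.5 run 1, at 7.17 FPKM. Neither gene passed the filter on low levels in the comparison of states.

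The Rab3 GTPases sit on secretory vesicles, and no test compared their shares of the family total. Rab3d, known from exocrine granules, held 72.8% of summed Rab3 FPKM in Neurog3-only, 71.3% in Neurog3+Fev, 40.7% in Fev-only and 25.9% in insulin cells. Over the same 4 states its median level was 82.6, 112, 77.6 and 90.8 FPKM. Rab3d held 47% of the summed FPKM in glucagon and 38.9% in marker-negative epithelial cells. Rab3a, the main neuronal Rab3, had 0.0, 14.6 and 33.8 FPKM in Neurog3-only sets, 3.31, 45.2 and 107 in Fev-only sets, and 89.5, 172 and 117 in insulin sets. Each insulin set of Rab3a lay above each Neurog3-only set, while Fev-only sets overlapped both. Insulin sets came from E14.5 and E15.5 alone and Neurog3-only sets from all days, so these levels and family shares also differ in day. Rab3b had a median of 7.21 FPKM in Neurog3-only and 41.4 in Fev-only sets and 92.3, 91.5 and 129 in insulin sets. Neither was called at a step: Fev-only minus Neurog3-only was 1.21 log2 (SE 0.51, limma adjusted p = 0.223) for Rab3a and 2.1 log2 (SE 1.01, adjusted p = 0.319) for Rab3b. Rab3c did not exceed 8.57 FPKM in a set of the 6 states, and Rab27b reached at most 2.15 FPKM. As means over sets, Rab27a held 85.8% of Rab27 FPKM in marker-negative epithelial cells (57.1% in the lowest set). In the other states it held 92.2% to 99%.

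Rph3al (chr11:75830999-75937738), or Noc2, a Rab3 and Rab27 effector needed for exocytosis in mouse endocrine and exocrine cells, was high before Fev. It was at 7.71, 178 and 300 FPKM in Neurog3-only sets, 92.3, 144 and 228 in Neurog3+Fev sets and 105, 137 and 191 in Fev-only sets. The groups overlapped widely. Rph3al was nonetheless lower in Fev-only cells in 6 of 6 sets (fitted difference -0.51 log2, SE 0.26, limma adjusted p = 0.361), and 94.5% of Neurog3-only cells had it at 10 FPKM. Rims2, a scaffold of release sites that binds Rab3, was low, with medians of 2.34 FPKM in Neurog3-only, 6.36 in Fev-only, 10.7 in glucagon and 9.21 in insulin sets.

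Sytl4 (chrX:133936385-133981812), or granuphilin, a Rab27a effector that docks insulin granules, separated insulin cells from the rest. Its insulin sets had 110 FPKM at E14.5 run 2, 223 at E15.5 run 1 and 200 at E15.5 run 2, 178 ± 59.6 (SD, n = 3 sets). Its glucagon sets had 0.224 FPKM at E12.5, 0.614 at E13.5 run 2, 0.0 at E14.5 run 1, 0.375 at E14.5 run 2 and 0.252 at E15.5 run 2. Fev-only sets had 0.0, 0.398 and 106 FPKM as lowest, median and highest. Insulin sets thus lay above every set of the other 5 states, narrowly so for the Fev-only set of E15.5 run 1, where 1 cell held 842 FPKM of Sytl4 with Ins1 and Ins2 at 0 and the next held 103. At 10 FPKM stood 73.7% of insulin cells (exact interval 60.3 to 84.5) against 1.96% of glucagon, 6.67% of Fev-only, 7.59% of Neurog3+Fev, 4.91% of Neurog3-only and 8.54% of marker-negative epithelial cells.

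Against Fev-only cells, over 3 sets, Sytl4 was the 1 member of 30 that rose, by 5.39 log2 (SE 1.01, interval 3.31 to 7.47, limma adjusted p = 0.0113), where 0.285% of all genes rose. Its differences in E15.5 run 1, E14.5 run 2 and E15.5 run 2 were 1.07, 6.66 and 7.02 log2. The call was lost without E14.5 run 2 (5.26 log2, adjusted p = 0.0889) or E15.5 run 2 (4.55 log2, 0.257), with a pseudocount of 0.1 (0.0813) and in run 2 alone (0.0683). Its promoter, chrX:133981763-133982062 on the minus strand of GRCm38.p6 (RefSeq), is printed as that of the 1 member called at the insulin step. It held none of the 5 motifs, and so has no capitals.
Sytl4: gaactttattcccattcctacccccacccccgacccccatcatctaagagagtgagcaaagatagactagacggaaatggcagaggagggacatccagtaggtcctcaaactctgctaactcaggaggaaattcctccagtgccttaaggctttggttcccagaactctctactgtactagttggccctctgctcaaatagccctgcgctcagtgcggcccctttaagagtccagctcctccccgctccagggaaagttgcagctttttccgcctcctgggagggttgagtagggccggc
No member fell by limma's test, where 0.057% of all genes fell, and 3 members had an unadjusted p under 0.05, all higher. In all 3 sets 10 members were higher (Stx1a, Vamp2, Vamp8, Syt13, Sytl4, Rab3a, Rab27a, Ptprn, Nsf and Napa), against 18.4% of all genes, with a median of 0.21 log2 over members and 0.14 over all genes.

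**Figure D4:**
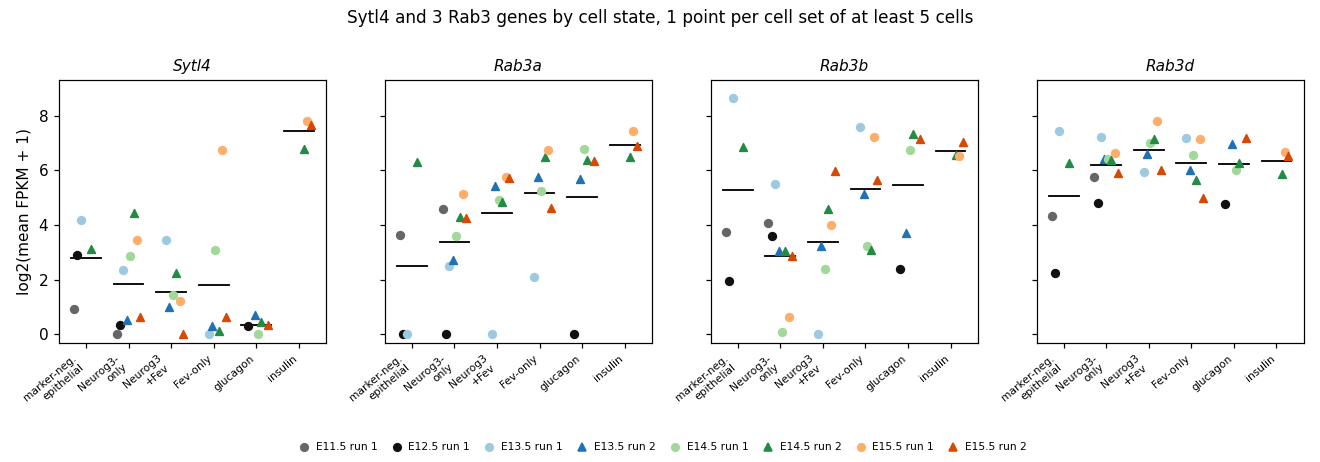
Mean FPKM + 1 per cell set (log2 scale) of Sytl4, Rab3a, Rab3b and Rab3d in 6 states, with circles for run 1, triangles for run 2 and bars for the mean over sets. Sytl4 stands at 110 to 223 FPKM in the 3 insulin sets and at 0.0 to 0.614 FPKM in the 5 glucagon sets. The median of Rab3d lies at 75.9 to 112 FPKM from Neurog3-only to insulin cells, lowest in glucagon cells.

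Only E14.5 run 2 and E15.5 run 2 held at least 5 cells of both hormone states, fewer sets than planned. Insulin was still set against glucagon, in a contrast of the same fit that was added after the data were seen. The fit also drew on sets that did not hold both states. Within the 2 that did, Sytl4 differed by 6.34 and 7.33 log2. Sytl4 was again the 1 member called higher, by 6.28 log2 (SE 1.07, limma adjusted p = 0.00636; 0.101% of genes called higher), and none was called lower (0.0316% of genes; 2 members at an unadjusted p under 0.05, both higher). The second was Stx1a, at 79 and 57.8 FPKM in insulin and 8.27 and 55.6 FPKM in glucagon cells of these sets (1.68 log2, SE 0.75, adjusted p = 0.642). With a pseudocount of 0.1 Sytl4 was not called.

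Against Fev-only cells, over 4 sets, 0 members were called in glucagon cells by limma, where 0.5% of all genes rose and 0.0633% fell, and 3 had an unadjusted p under 0.05 (Ptprn, Nsf and Napa, all higher). Higher in all 4 sets were 4 members (Vamp3, Vamp8, Cadps2 and Napa), against 12% of all genes, and the median was 0.32 log2 over members and 0.14 over all genes. Napa, the adaptor alpha-SNAP, had 289 to 605 FPKM in glucagon and 220 to 570 in Fev-only sets, overlapping ranges, and differed by 0.71 log2 (SE 0.21, adjusted p = 0.119). That difference was -0.0 after cells were rescaled to a common total. Nsf, the ATPase that takes spent SNARE bundles apart, was at 10 FPKM in 82.4% of glucagon cells, 43.3% of Fev-only and 59.6% of insulin cells (difference from Fev-only 1.07 log2, SE 0.43, adjusted p = 0.307). Rescaling moved the median of all genes from 0.142 to -0.145 log2 in this contrast, with 79 genes up and 10 down becoming 29 and 55. In the insulin contrast it moved from 0.141 to -0.109, with 45 and 9 becoming 26 and 27.

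No priming factor or complexin was called between states. Cadps, or CAPS1, which primes dense-core granules, had 2.52, 7.77 and 18.3 FPKM in Neurog3-only sets, 14.7, 24.8 and 28.9 in Neurog3+Fev sets and from 8.68 to 66.1 in Fev-only sets. The ranges overlapped, with Neurog3+Fev the higher in 6 of 6 sets (1.33 log2, SE 0.49, limma adjusted p = 0.328). Its relative Cadps2 did not exceed 3.91 FPKM in a set, Unc13a (Munc13-1, the synaptic priming factor) 9.59, and Doc2b, a calcium sensor of insulin release, 8.72. Cplx2 had 3.45, 20.3 and 28.8 FPKM in Neurog3-only, 20.5, 29.8 and 45.6 in Neurog3+Fev and 14.7, 34 and 41.7 in Fev-only sets, which overlapped, and 52.1%, 69.6% and 68.3% of cells held it. Cplx1 was at most 0.886 FPKM in a Neurog3-only, 0.26 in a Fev-only, 0.892 in a glucagon and 0.289 in an insulin set, and it was listed at 0 in each Neurog3+Fev set. It reached 10 FPKM in 1 cell of the 492 in the 6 states, a Neurog3-only cell, and left 94.9% to 100% of complexin FPKM to Cplx2 as means over sets.

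Of the synaptic vesicle proteins, synaptophysin (Syp) had 0.0, 16.2 and 56.2 FPKM in Neurog3-only sets, 5.27, 56 and 101 in Neurog3+Fev, 14.1, 68 and 93.6 in Fev-only, and 54.6, 55.1 and 39.5 in insulin sets. All 4 groups overlapped. Its difference between Fev-only and Neurog3-only cells was 1.42 log2 (SE 0.53, limma adjusted p = 0.154). Syp was called there in 4 of 19 alternatives, among them without E13.5 run 1, and its limma adjusted p reached 0.758 in another. The share of cells at 10 FPKM was 30.7% in Neurog3-only and 72.2% in Neurog3+Fev cells. Sv2a, a vesicle glycoprotein, did not exceed 3.7 FPKM in a Neurog3-only and 5.3 FPKM in a Fev-only set but reached 16.9 FPKM in a Neurog3+Fev set. Its fitted difference between Neurog3+Fev and Neurog3-only cells was 1.2 log2 (SE 0.5, limma adjusted p = 0.412). Syn1, the synapsin that tethers vesicles in nerve terminals, did not exceed 6.41 FPKM in a set. Sytl1 and Sytl2, further Rab27 effectors, had medians of 7.22 and 0.19 FPKM in Neurog3-only and 2.56 and 0.112 in insulin sets.

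**Figure D5:**
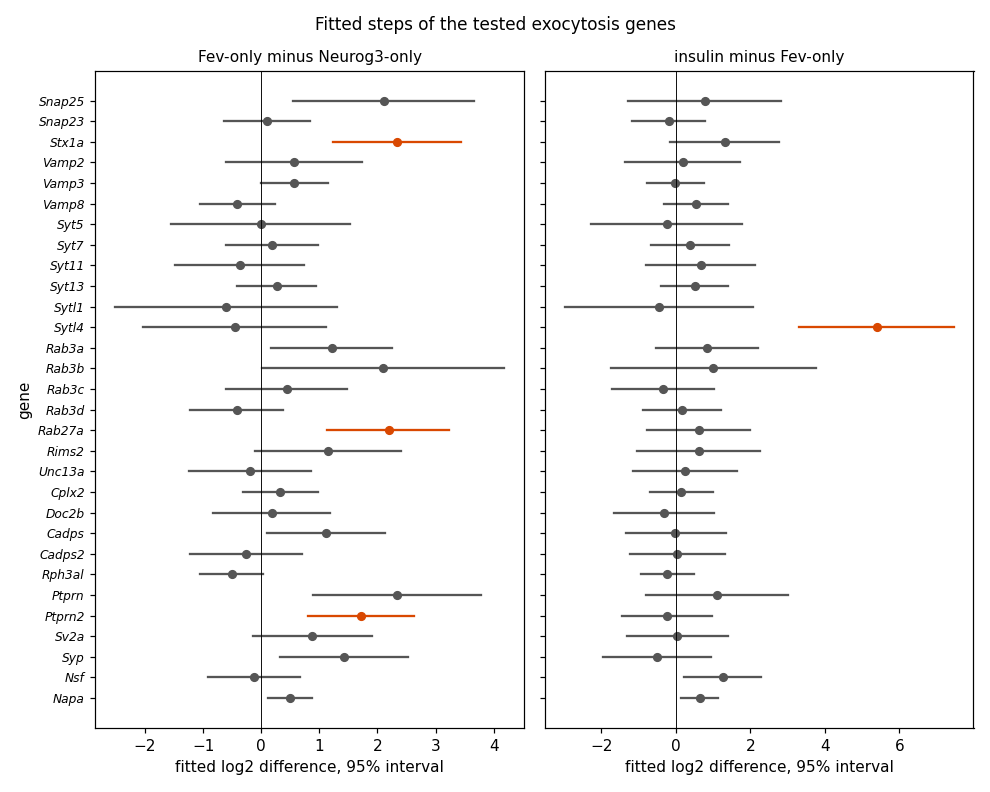
Fitted log2 difference of the 30 tested members between Fev-only and Neurog3-only cells (left, 6 sets) and between insulin and Fev-only cells (right, 3 sets), with 95% intervals from limma; orange marks an adjusted p under 0.05. Stx1a (2.33), Rab27a (2.19) and Ptprn2 (1.72) are orange on the left and Sytl4 (5.39) on the right.

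Neurog3-only cells were also compared with marker-negative epithelial cells over 4 sets. Whether those epithelial cells stand before Neurog3 was not tested, so the differences are not read as onset. Against marker-negative epithelial cells, 0 of 30 members were called in Neurog3-only cells by limma, where 0.00633% of all genes rose and 0.038% fell, and 10 members had an unadjusted p under 0.05, 4 higher and 6 lower. Of the 30, 13 were higher and 17 lower. Higher in all 4 sets were 5 members (Snap23, Syt5, Syt7, Syt13 and Rph3al), against 4.16% of all genes, and lower in all 4 were 3 (Vamp3, Rims2 and Napa), against 6.47%. Rph3al stood at 40 FPKM at E11.5, 5.47 at E12.5, 94.1 at E13.5 run 1 and 63.8 at E14.5 run 2 in the epithelial cells, a fitted 1.22 log2 below Neurog3-only cells (SE 0.31, adjusted p = 0.12). At 10 FPKM it was in 54.8% of epithelial and 83.3% of Neurog3-only cells at E11.5, in 21.2% and 28.6% at E12.5, in 100% of both at E13.5 run 1, and in 60% and 100% at E14.5 run 2. Shares pooled over days are not comparable here, since 64 of 82 epithelial but 13 of 163 Neurog3-only cells came from E11.5 and E12.5. The median was -0.1 log2 over members and -0.04 over all genes, and rescaling moved the latter to 0.15, with 1 gene up and 6 down becoming 11 and 7.

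Epithelial sets of E13.5 run 1 and E14.5 run 2 had 5 cells each and high values of late members. Stx1a was at 24, 6.16, 224 and 28.6 FPKM in the epithelial sets of E11.5, E12.5, E13.5 run 1 and E14.5 run 2, Ptprn at 3.36, 0.0, 29.5 and 50.8, and Snap25 at 0.963, 0.448, 70.3 and 85.9. The 2 early sets were low for Snap25 and Ptprn and the 2 small later sets high. Without E12.5 run 1, 4 members were called, Ptprn and Stx1a lower (-3.83 and -2.72 log2) and Rph3al and Vamp8 higher in Neurog3-only cells (1.3 and 1.33 log2), in a fit that called 45 genes up and 53 down against 1 and 6 here. In that set the summed level of 10 acinar markers was 4460 FPKM in epithelial and 5590 in Neurog3-only cells, against medians over sets of 374 and 59.9, with Amy2a5 at 0; 9 leukocyte markers summed to 3410 FPKM in Neurog3-only cells of E11.5 against a median of 5.03. Their part in the result was not tested.

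Markers of neurons and of neural crest were summed in each state. The 9 of 10 listed with an entry summed to medians of 6.28 FPKM over Neurog3-only, 7.76 over Neurog3+Fev, 20.9 over Fev-only, 26.5 over glucagon and 60.9 over insulin sets, and to 218 at most, led by Th, with Phox2a at 0 in each of the 6 states. Duct and trunk markers, 6 genes, summed to medians of 983 FPKM in Neurog3-only and 197 and 179 in the 2 Fev states. The part of either in the results was not tested.

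By embryonic day, 28 of 32 tested members had a positive slope over the 8 sets of all kept cells (median 0.36 log2 per day, all genes 0.02), but 0 members and 0.0% of genes were called by limma; 11 members had an unadjusted p under 0.05, all positive. Snap25 had a slope of 0.71 log2 per day (SE 0.22, adjusted p = 0.314) and Rab27a of 0.7 (SE 0.19, adjusted p = 0.278). The mix of states moved with the day, since insulin cells in sets of 5 or more began at E14.5. Within Neurog3-only cells, 18 of 29 slopes were positive, with a median of 0.15 log2 per day (all genes 0.04), 0 members and 0.0% of genes called, and 2 members at an unadjusted p under 0.05: Syp at 1.21 log2 per day (SE 0.32, adjusted p = 0.692) and Rab3b at -0.88 (SE 0.38, adjusted p = 0.743).

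By run, 12 of 30 members were higher and 18 lower in run 2 over E13.5 to E15.5 (median -0.09 log2, all genes -0.1, moved to 0.245 by rescaling), and 0 were called by limma, where 0.711% of genes were; 2 had an unadjusted p under 0.05, Nsf (-1.1 log2, SE 0.23, adjusted p = 0.221) and Vamp3 (-0.95, SE 0.29, adjusted p = 0.288). The median share of FPKM from predicted, small and mitochondrial genes per cell was 20.1%, 22.9% and 26.8% in the E13.5, E14.5 and E15.5 sets of run 1 and 48.6%, 51.3% and 45.6% in those of run 2, and its part in these differences was not tested. The difference of the Fev steps between runs was tested as an interaction. It gave 0 members for Neurog3+Fev (0.00674% of genes) and 0 for Fev-only (0.0% of genes), with 0 members at an unadjusted p under 0.05 in either. The Stx1a interaction was 0.79 log2 (SE 0.8, adjusted p = 0.928) in the Fev-only step, which does not show that the runs were alike.

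Cells with another hormone at 100 FPKM (ghrelin, somatostatin or pancreatic polypeptide) were described without a fit. Sytl4 was at 10 FPKM in 1 of 26 Ghrl, 0 of 12 Sst and 1 of 28 Ppy cells and in 5 of 17 cells with both glucagon and insulin. Snap25 was at 10 FPKM in 53.8%, 50% and 71.4% of Ghrl, Sst and Ppy cells, Rab27a in 61.5%, 50% and 64.3%, and Stx1a in 38.5%, 8.33% and 42.9%. No test compared these shares.

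The wider exocytosis machinery, 76 listed genes with 74 entries and 58 tested, had 2 genes called among these comparisons of states, both in Fev-only against Neurog3-only cells: Sv2c, a vesicle protein (1.89% of all genes rose there; 2.06 log2, SE 0.6, limma adjusted p = 0.0467), and Snap47, a SNAP family protein (1.2 log2, SE 0.34, adjusted p = 0.0385). The list's median was 0.09 log2 in that step (all genes -0.09) and 0.24 for Neurog3+Fev (all genes -0.04). It was 0.11 for glucagon and 0.13 for insulin against Fev-only cells (all genes 0.14 in both), and 0.18 for Neurog3-only against epithelial cells (all genes -0.04).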

How the data were processed

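Single cells from sorted Neurog3-eGFP embryonic mouse pancreas were analysed from the table of gene FPKM values that the authors deposited. Reads were aligned with TopHat2 2.0.13 and quantified with Cufflinks 2.2.0 on mm10, per the submitters' processing notes, so each FPKM value rests on Cufflinks' split of fragments between transcripts and overlapping loci. The sources used here do not say whether reads were counted by strand. The table gives no counts, and depth is the fragment total in the labels, from 101675 to 1990000 per kept cell (63 cells fell below the minimums).

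Cell states, set means and the limma 3.58.1 fit (R 4.3.3, trended variance, two-sided tests) were computed here, with Python 3.11.15, pandas 2.3.3, numpy 2.4.6, scipy 1.17.1 and matplotlib 3.10.9. A contrast was fitted where at least 3 sets held at least 5 cells of both states. A p-value here reflects the spread among sets alone, which may be technical, and exact intervals of shares cover counting error only. The fit was tested on simulated data. Alternatives changed the pseudocount, filter, weights, thresholds, scaling, runs and sets.

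The 36 members and the gene lists were chosen with earlier results of these data known. All members are accounted for; set values are given for called members and for Snap25, Stx1a, Vamp2, Syt4, Syt7, Syt13, Rab3a, Sytl4, Cplx1, Cplx2, Cadps, Ptprn, Ptprn2, Rph3al and Syp, and other members named were chosen after their values were seen. Promoter sequences are RefSeq's on GRCm38.p6; 11 members had no promoter entry.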

Additional observations from a re-analysis of the deposited data

Results flagged for a closer look

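Among 53 groups of 4 to 6 set values checked, 4 held a set whose gap to its nearest neighbor was large against the group's whole range; chance marks about 1 in 20 groups. In the step from Neurog3-only to Fev-only cells, Syt13 differed by 1.82 log2 in E13.5 run 1 and by -0.26 to 0.22 in the other sets. In the same step Cplx2 differed by -0.44 log2 in E14.5 run 2 and by 0.52 to 0.88 elsewhere. Between Neurog3-only and marker-negative epithelial cells, Vamp2 differed by -2.15 log2 in E14.5 run 2, where the epithelial set has 5 cells, and by 1.24 to 1.72 elsewhere. In that comparison Rph3al differed by 0.43 log2 in E12.5 run 1 and by 1.42 in each of the other 3 sets.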

How the results depend on the processing

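Counts of members called depended on how sets were formed and weighted. For Neurog3+Fev against Neurog3-only cells the count of 0 became 4 with units weighted by cells, 3 with means of log values, 6 with units of at least 10 cells, 1 with cells rescaled to a common total (Stx1a), and 1 with a hormone threshold of 10 FPKM or without E12.5 and E13.5 run 1 (Ptprn2). Calls over all genes went from 50 up and 32 down to 231 and 254, 112 and 90, 126 and 75, 80 and 48, 81 and 62, and 62 and 14, in the order given. Leaving out each set in turn gave 0 to 1, with 8 to 77 genes called up and 4 to 49 down. For Fev-only against Neurog3-only cells the count of 3 became 5 with weights, 6 with means of log values, 7 with units of at least 10 cells, 5 without E12.5 and E13.5 run 1, 0 at a Neurog3 and Fev threshold of 30 FPKM, 0 in run 1 and 1 in run 2 (Ptprn2). Over all genes, 299 up and 411 down became 525 and 754 with weights, 518 and 521 with means of log values, 242 and 338 with at least 10 cells, 263 and 284 without the 2 sets, 161 and 170 at 30 FPKM, 6 and 17 in run 1, and 84 and 58 in run 2. Leaving out each set gave 1 to 5: 5 without E13.5 run 1, and 1 (Stx1a) without E13.5 run 2, E15.5 run 1 or E15.5 run 2. Over all genes, the fits with a set left out called 150 to 360 up and 189 to 488 down. For glucagon against Fev-only cells means of log values called 1 (Nsf), in a fit that called 354 genes up and 43 down against 79 and 10. The Napa difference in that contrast became -0.0 with rescaled cells. For insulin against Fev-only cells the count of 1 became 0 with a pseudocount of 0.1 or in run 2, and 0 to 1 with each set left out. Over all genes, 45 up and 9 down became 16 and 8, then 10 and 0. With each set left out they became 3 to 52 up and 2 to 12 down. Against glucagon cells the count of 1 also became 0 with a pseudocount of 0.1 or in run 2. There 16 genes up and 5 down became 8 and 4, then 8 and 2. For Neurog3-only against epithelial cells means of log values, rescaling and the threshold of 30 FPKM each called 1 (Rph3al), and leaving out each set gave 0 to 4. Over all genes, 1 up and 6 down became 38 and 51, 11 and 7, and 53 and 28. With each set left out they became 1 to 45 up and 0 to 53 down. The causes were not tested. Slopes along the day and run differences called 0 members under each alternative run.

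Of 869 alternative values of 51 single-member results, 806 kept direction and call, 23 lost the call, 39 gained it and 1 changed sign. Most of the 51 were not called to begin with, so keeping the call mostly meant staying uncalled, and only called results could lose it. Of those in the Fev-only step, Stx1a kept its call in 16 of 19 alternatives, Rab27a in 13 of 19 and Ptprn2 in 11 of 19. Sytl4 of insulin cells kept it in 12 of 16 against Fev-only and 13 of 15 against glucagon cells. The difference of Stx1a between Fev-only and Neurog3-only cells ranged over alternatives from 1.71 to 3.03 log2, that of Rab27a from 1.88 to 2.64 and that of Ptprn2 from 1.4 to 2.75. The difference of Sytl4 between insulin and Fev-only cells ranged from 4.55 to 6.86 log2, with adjusted p from 6.77e-11 to 0.257.

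Too few sets remained to run the fit with at least 10 cells for either hormone state against Fev-only cells, for insulin against glucagon and for Neurog3-only against epithelial cells. The same held for Neurog3-only against epithelial cells at a hormone threshold of 10 FPKM or in run 2, for insulin against Fev-only at 30 FPKM, for the hormone contrasts in run 1, and for insulin against glucagon without E14.5 run 2 or E15.5 run 2. No paired analysis was possible because the numbers in the labels are wells of sorted cells and tie no cell of a state to a cell of another; the set was a factor in every comparison of states. Levels below about 1 FPKM in a few cells, as for Syt1, Syt4, Cplx1 and Syn1, were not tested in the comparison of states.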

Other observations

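Rest, the gene of the repressor that binds RE1, is not a member and was looked at after the motif was seen in the Ptprn2 promoter. It was at 10 FPKM in 26.8% of marker-negative epithelial cells, 2.45% of Neurog3-only cells and no cell of the Neurog3+Fev, Fev-only, glucagon and insulin states, which allows up to 4.56%, 5.96%, 6.98% and 6.27% of cells by the exact interval. The states differ in day: over all kept cells, Rest was at 10 FPKM in 21.9% of the E11.5 set, 21.1% of the E12.5 set and 0% to 2.44% of each later set.

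A pair of E14.5 cells, 1 in each run, had the same index sequences and more similar profiles (r = 0.863 across genes, which are not independent) than the next closest pair of that day (0.747). Both held insulin and glucagon, so they entered the fits along day and run and no comparison of states. Leaving out the run 2 cell, an alternative chosen after the data were seen, left 0 members called in those fits.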
